A study of Mus musculus with 8 samples.

Results

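Complement is a cascade of plasma and tissue proteins that tags surfaces for uptake by phagocytes and recruits leukocytes. In its classical pathway C1q, built from A, B and C chains, binds a target and activates proteases that cleave C4 and C2, whose fragments form an enzyme that cleaves C3. The alternative pathway uses factor B in the place of C2, the C3a receptor senses a fragment released from C3, and the C1 inhibitor restrains the first step. The liver makes most plasma complement, whereas macrophages are the main source of C1q and other tissue cells make several components locally.

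The genes described are C1qa, C1qb, C1qc, C2, C3, C4b, Cfb, C3ar1 and Serping1, taken from the rows of the deposited value table that carry 1 gene symbol, with the highest-mean row per gene. Of these 9 genes 8 were measured, each by 1 row, out of 22180 genes in all, and C3 was not analysed here. They were measured in the aorta of newborn C57BL/6 mice (postnatal day 0), either wild-type or lacking the gene of fibulin-4, an extracellular protein on which elastic fibre assembly depends. The ascending segment began at the aortic valve and ended at the ductus arteriosus, and the descending segment lay between the vena cava and the diaphragm. Each array held RNA from a pool of 8 pups of the same genotype and segment, and 2 arrays per group gave 8 arrays in 4 groups: wild-type ascending, wild-type descending, knockout ascending and knockout descending. The 2 arrays of a group are biological replicates per the labels, which name no treatment and do not give the sex of the pups. A pool hides the spread between its pups.

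Values are log2 expression made by RMA, a method that corrects background, normalises between arrays and summarises the probes of a gene, so a difference of 1 is a doubling. Array medians over all rows lay between 4.68 and 4.89. Replicate 2 of both wild-type groups had narrower values, with an interquartile range of 1.80 (ascending) and 1.74 (descending) over the genes tested where the other 6 had 2.14 to 2.28. These are called the narrow wild-type arrays below. Spearman's rho between replicates, across genes, lay between 0.899 in wild-type ascending and 0.966 in knockout descending aorta. The smooth muscle markers Acta2 (12.1 to 12.4), Cnn1 (10.3 to 10.9) and Myh11 (8.70 to 9.22) were bright on every array. Markers of skeletal muscle, brown fat and liver were also measured above the array median on at least some arrays. In whole tissue, fewer cells of a type and less RNA per cell cannot be told apart.

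The promoters of the C1q genes that varied together and of the C3a receptor gene are shown first, because C1qb and C1qc had nearly parallel values on the arrays and C3ar1 had the largest ascending difference. Each sequence is the 250 bases before the RefSeq start on assembly GRCm38.p6, written 5′ to 3′ on the strand of the gene, which is the minus strand in each case. RefSeq promoters were at hand for 4 of the 9 genes, and that of C3 is not printed. Capitals mark TTCCT or its reverse complement AGGAA, the core bound by the ETS family, to which the myeloid regulator PU.1 belongs.
C1qb promoter, chr4:136886201-136886450: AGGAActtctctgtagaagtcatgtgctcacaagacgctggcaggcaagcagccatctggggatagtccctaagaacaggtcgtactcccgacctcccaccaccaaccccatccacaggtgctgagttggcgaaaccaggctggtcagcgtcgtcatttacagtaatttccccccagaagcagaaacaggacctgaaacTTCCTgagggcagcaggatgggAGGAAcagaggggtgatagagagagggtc
C1qc promoter, chr4:136892915-136893164: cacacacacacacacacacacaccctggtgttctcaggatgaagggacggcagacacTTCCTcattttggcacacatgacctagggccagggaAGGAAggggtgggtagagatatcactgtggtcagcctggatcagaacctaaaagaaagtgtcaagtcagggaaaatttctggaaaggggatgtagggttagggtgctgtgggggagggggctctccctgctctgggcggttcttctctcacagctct
C3ar1 promoter, chr6:122856158-122856407: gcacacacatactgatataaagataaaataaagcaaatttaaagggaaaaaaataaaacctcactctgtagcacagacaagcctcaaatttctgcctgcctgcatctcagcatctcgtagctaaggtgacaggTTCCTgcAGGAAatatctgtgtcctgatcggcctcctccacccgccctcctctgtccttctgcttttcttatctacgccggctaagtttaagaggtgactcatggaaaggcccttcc

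The core occurred 3 times in the C1qb window and 2 times each in those of C1qc and C3ar1. It is common: 60.3% of 32851 RefSeq promoter windows of the same length held it on either strand. The longer PU.1 box GAGGAA, which contains the core, was found in the C1qb window 30 to 25 bases before the start. On the other strand it lay 193 to 188 bases before the start of C1qc. It was found in 23.3% of all windows and was not found in that of C3ar1. Neither the core of an interferon-stimulated response element (ISRE, 2.98% of windows) nor a STAT element TTCNNNGAA (7.02%) was found in the 3 windows. These matches are descriptions of letters and say nothing of binding.

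The first question was how the knockout, averaged over ascending and descending aorta, differed from wild-type in the complement genes. All 8 measured genes had a log2 change above 0, from 0.16 for C1qa to 1.28 for C4b, with a median of 0.54 against 0.00 over all genes, of which 49.8% lay above 0. None passed the test: 0 of 8 had a limma adjusted p under 0.05, a threshold that 0.0721% of the 22180 genes passed. At an unadjusted p under 0.05, 5 of 8 were higher (C1qb, C2, C4b, Cfb and C3ar1) and 0 were lower, against 7.57% of all genes higher and 3.83% lower. The members, and the gene lists used below, were chosen with earlier results of these data known. Their counts are thus not independent of these data. Changes also followed the level of a gene. The median was 0.24 in the brightest 20% of genes, which held C1qa, C1qb, C1qc, Cfb and Serping1, 0.14 in the next 20%, which held C4b and C3ar1, and -0.04 in the middle 20%, which held C2.

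**Figure D1:**
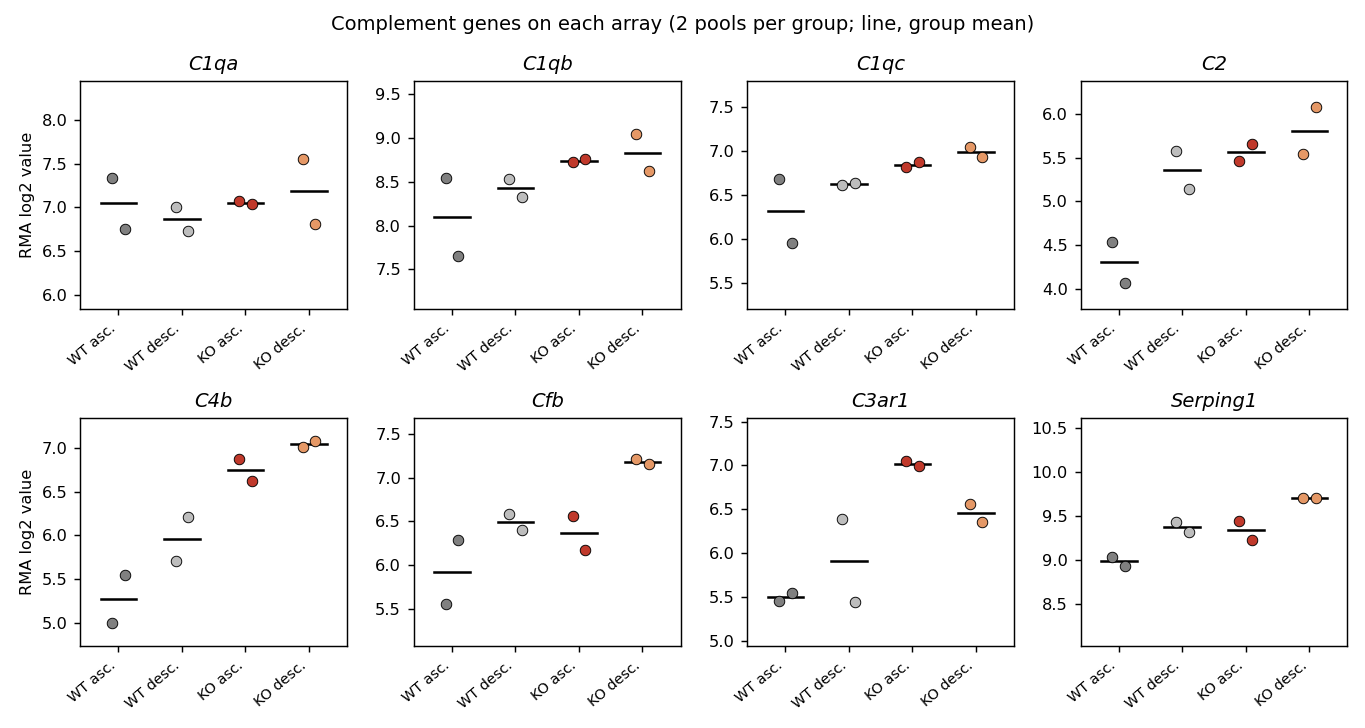
RMA log2 value of the 8 measured complement genes on each of the 8 arrays; WT, wild-type; KO, fibulin-4 knockout; asc., ascending; desc., descending; points are pools and lines group means, and every panel spans the same log2 range. For C4b all 4 knockout arrays (6.62 to 7.08) lie above all 4 wild-type arrays (5.01 to 6.20), whereas those of C1qa overlap.

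C1qb, which encodes the B chain, had log2 values of 8.54 and 7.65 in wild-type ascending, 8.53 and 8.33 in wild-type descending, 8.72 and 8.75 in the knockout ascending and 9.04 and 8.62 in the knockout descending aorta. All 4 knockout arrays thus lay above all 4 wild-type arrays, by as little as 0.07, and wild-type ascending replicate 2 stood apart at the low end. The averaged log2 change was 0.52 (SE 0.23, limma adjusted p = 0.432), or 1.43-fold. A second quantile normalization made it 0.26, leaving out wild-type ascending replicate 2 made it 0.30, and leaving out both narrow arrays made it 0.25. The change was 0.64 (SE 0.33) in the ascending and 0.40 (SE 0.33) in the descending segment. Leaving out wild-type ascending replicate 2 made the ascending value 0.20, and leaving out replicate 1 made it 1.08. The descending value was 0.19 without knockout descending replicate 1, 0.61 without replicate 2 and 0.16 after quantile normalization.

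C1qc, which encodes the C chain, stood at 6.69 and 5.95 in wild-type ascending, 6.61 and 6.64 in wild-type descending, 6.82 and 6.87 in the knockout ascending and 7.05 and 6.94 in the knockout descending aorta. As for C1qb, no knockout array fell to the level of a wild-type array and the lowest value was that of wild-type ascending replicate 2. The averaged change was 0.45 (SE 0.20, limma adjusted p = 0.443), and it was 0.26 after quantile normalization and 0.27 without wild-type ascending replicate 2. The ascending change was 0.53 (SE 0.29), with 0.16 when wild-type ascending replicate 2 was left out and 0.90 when replicate 1 was. C1qb and C1qc were among 3 members, with C4b, whose knockout arrays all lay above the wild-type arrays, which held for 4.76% of all genes.

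C1qa encodes the A chain. Its values were 7.34 and 6.76 in wild-type ascending, 7.003 and 6.73 in wild-type descending, 7.07 and 7.04 in the knockout ascending and 7.55 and 6.81 in the knockout descending aorta. Genotypes overlapped in both segments. The averaged change was 0.16 (SE 0.23, limma adjusted p = 0.805, 95% interval -0.35 to 0.67), and it was -0.06 after a second quantile normalization and -0.05 without the narrow wild-type arrays. Its interval includes the averaged changes of C1qb and C1qc. That does not decide whether the chains differ, because all were measured on the same arrays. A difference between the chains was not tested.

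Macrophages, the main source of C1q, were followed by 16 marker genes. All 16 had an averaged log2 change above 0, as did 49.8% of all genes, with a median of 0.69 against 0.00. Of these markers 9 were higher at an unadjusted p under 0.05 (7.57% of all genes) and 0 had an adjusted p under 0.05. These shares are over genes of all levels, and the markers were not set against genes of like brightness. The log2 of their summed level was 11.0 to 11.5 in wild-type ascending, 11.6 to 11.8 in wild-type descending, 12.0 to 12.3 in the knockout ascending and 11.9 to 12.3 in the knockout descending aorta. The defining markers Adgre1 (5.09 to 6.73), Csf1r (6.67 to 7.63) and Fcgr1 (5.75 to 6.99) lay above the array median on every array. Their part in the C1q values was not tested. The mean of the C1q genes minus the mean of the 16 markers was 0.64 and 0.31 in wild-type ascending, 0.13 and 0.25 in wild-type descending, -0.20 and 0.12 in the knockout ascending and 0.17 and 0.10 in the knockout descending aorta. Levels of different probe sets cannot be set against each other, so what these values show is how the difference varied between arrays, from the highest in wild-type ascending replicate 1 to the lowest in knockout ascending replicate 1. Over the 8 arrays, which span the groups compared, Pearson's r with the marker mean was 0.90 for C1qb, 0.86 for C1qc and 0.48 for C1qa. It was 0.86 for C3ar1, 0.82 for C2, 0.80 for Serping1, 0.79 for C4b and 0.56 for Cfb. These correlations describe arrays that also differ in genotype and segment.

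**Figure D2:**
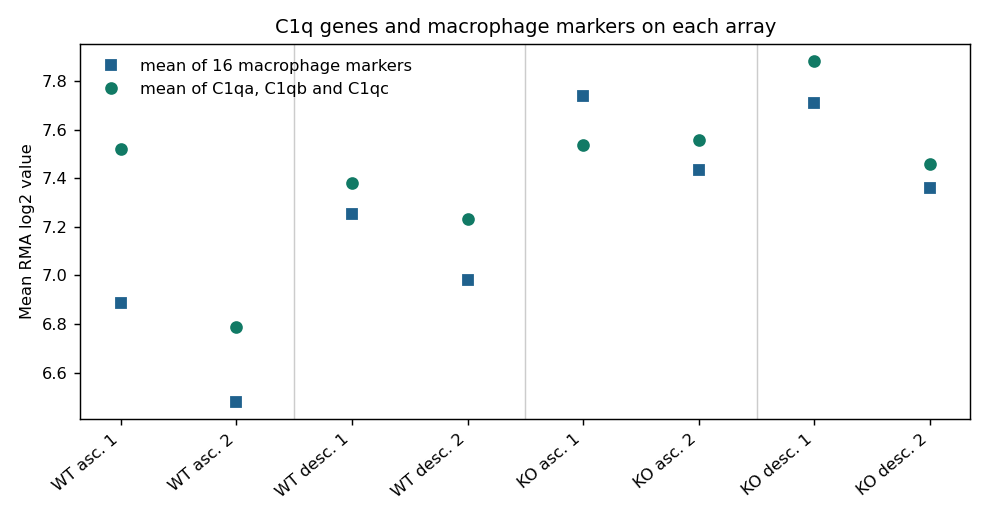
Mean RMA log2 value of C1qa, C1qb and C1qc (circles) and of 16 macrophage markers (squares) on each array, labelled by group and replicate; WT, wild-type; KO, fibulin-4 knockout. The marker mean is 6.48 to 7.25 on the wild-type and 7.36 to 7.74 on the knockout arrays, whereas the C1q mean of wild-type ascending replicate 1 (7.52) lies among the knockout arrays (7.46 to 7.88).

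C4 and C2 are the components cleaved in the classical pathway. C4b encodes C4, whose larger fragment binds covalently to targets. Its log2 values were 5.01 and 5.54 in wild-type ascending, 5.71 and 6.20 in wild-type descending, 6.87 and 6.62 in the knockout ascending and 7.004 and 7.08 in the knockout descending aorta. The groups were ordered without overlap from wild-type ascending to knockout descending. The averaged log2 change was 1.28 (SE 0.21, 95% interval 0.82 to 1.74), or 2.42-fold, the largest of the 8. With a limma adjusted p of 0.0820 it missed the threshold. The adjusted p was 0.0492 with the dimmest 25% of genes left out and reached 0.396 when every row of the table was tested. It was 0.236 after quantile normalization, with a change of 1.10. Without the narrow wild-type arrays, which leaves 1 array in each wild-type group, the averaged change was 1.54.

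Within segments C4b stood 1.47 higher (SE 0.29, 2.77-fold) in the knockout ascending and 1.09 higher (SE 0.29, 2.12-fold) in the knockout descending aorta. The limma adjusted p was 0.232 and 0.674. C4a, a near-identical copy of C4b that RefSeq lists as a transcribed pseudogene, was dim, at 1.66 to 3.24 across all arrays. Its averaged change was 0.59 (SE 0.23, limma adjusted p = 0.388). Probes for 2 such copies can share signal, and how the array design separated them is not given in the sources used here, so the C4b values are uncertain to that extent.

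C2 encodes the protease that joins the C4 fragment in the classical enzyme. Its values were 4.54 and 4.07 in wild-type ascending, 5.57 and 5.15 in wild-type descending, 5.46 and 5.65 in the knockout ascending and 5.54 and 6.07 in the knockout descending aorta. Wild-type ascending aorta was low and the other 3 groups overlapped. The ascending change was 1.25 (SE 0.30, limma adjusted p = 0.304), or 2.39-fold. The descending change was 0.45 (SE 0.30, adjusted p = 0.892), which was 0.18 without knockout descending replicate 2 and 0.71 without replicate 1. Averaged over segments C2 stood at 0.85 (SE 0.21, limma adjusted p = 0.237).

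Cfb, which encodes factor B of the alternative pathway, had values of 5.55 and 6.29 in wild-type ascending, 6.59 and 6.40 in wild-type descending, 6.56 and 6.18 in the knockout ascending and 7.21 and 7.15 in the knockout descending aorta. Knockout descending aorta stood above every other array, and the ascending genotypes overlapped. The averaged change was 0.56 (SE 0.21, limma adjusted p = 0.381). The descending change was 0.68 (SE 0.30, limma adjusted p = 0.836). In the ascending aorta it was 0.44 (SE 0.30), a value that became 0.07 when wild-type replicate 1 of that segment was left out and 0.81 when replicate 2 was.

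C3ar1, the gene of the C3a receptor, carried on macrophages and other myeloid cells, had values of 5.46 and 5.54 in wild-type ascending, 6.39 and 5.44 in wild-type descending, 7.05 and 6.99 in the knockout ascending and 6.56 and 6.35 in the knockout descending aorta. Knockout ascending aorta was the highest group, whereas the descending genotypes overlapped because wild-type descending replicate 1 was high. The ascending change of 1.52 (SE 0.32, limma adjusted p = 0.255), or 2.87-fold, was the largest ascending change of the 8 genes. The descending change was 0.54 (SE 0.32, limma adjusted p = 0.878), with 0.07 without wild-type descending replicate 2 and 1.01 without replicate 1. Averaged, C3ar1 stood at 1.03 (SE 0.23, limma adjusted p = 0.170). The 16 macrophage markers had a median ascending change of 0.82 against -0.01 over all genes. Of them 10 were higher at an unadjusted p under 0.05 (5.31% of all genes) and 0 had an adjusted p under 0.05 there, and their part in the C3ar1 values was not tested.

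Serping1 encodes the C1 inhibitor, which blocks the proteases C1r and C1s. It was the brightest of the 8, above 98.3% of all genes by its mean, with values of 9.03 and 8.93 in wild-type ascending, 9.43 and 9.31 in wild-type descending, 9.44 and 9.23 in the knockout ascending and 9.71 and 9.70 in the knockout descending aorta. Knockout arrays lay above the wild-type arrays within each segment. The averaged change of 0.34 (SE 0.17, limma adjusted p = 0.473) was 0.16 after quantile normalization. C1qb, C1qc, C4b and Serping1 were the 4 members whose knockout arrays lay above the wild-type arrays within both segments, as did 7.81% of all genes.

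**Figure D3:**
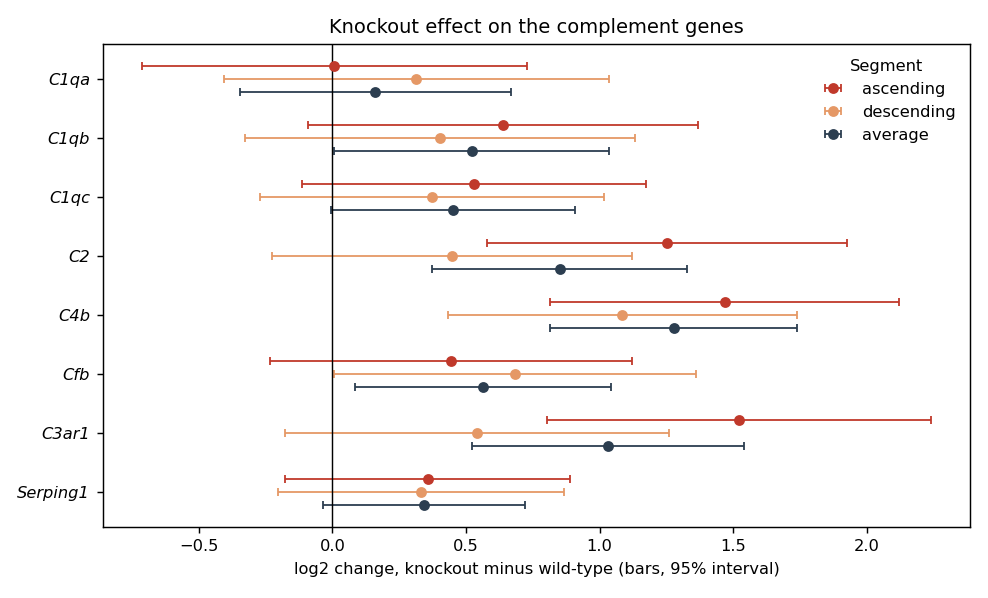
Log2 change, knockout minus wild-type, of each measured complement gene in the ascending aorta, the descending aorta and their average; points are limma estimates over all 8 arrays and bars 95% intervals without adjustment for the number of genes. The points lie at or right of 0, at 0.01 for C1qa and 1.52 for C3ar1 in the ascending aorta, and none passed after adjustment over all genes.

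By segment, 3 of 8 genes (C2, C4b and C3ar1) had an unadjusted p under 0.05 in the ascending aorta, where 5.31% of all genes were higher at that level. In the descending aorta there were 2 of 8 (C4b and Cfb), against 3.63% of all genes. No member was called in either segment by limma, where 0% of genes were called in the ascending and 0.00451% in the descending aorta. The median change of the members was 0.59 in the ascending and 0.42 in the descending aorta, against -0.01 and 0.03 over all genes. Without overlap, 6 of 8 were higher in the knockout ascending aorta and 5 of 8 in the descending, as were 21.5% and 21.6% of all genes.

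Whether the segments responded differently was tested as the difference of the knockout effects. It was 0.98 (SE 0.45) for C3ar1, 0.81 (SE 0.42) for C2, 0.38 (SE 0.41) for C4b and -0.24 (SE 0.43) for Cfb. For C3ar1 it was 0.51 without wild-type descending replicate 1. For C4b, with 1 array left out at a time, it ran from 0.11 without wild-type ascending replicate 1 to 0.65 without wild-type ascending replicate 2. For Cfb it turned to 0.13 without wild-type ascending replicate 2. The limma adjusted p was 1.00 for each, 0 members had an unadjusted p under 0.05, and 1.62% of all genes had a higher and 1.68% a lower difference at that level. The 95% interval of the C4b difference ran from -0.54 to 1.31, which includes 0 and also values well above the estimate of 0.38.

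The segments were also compared within each genotype, ascending minus descending. These comparisons share arrays with the knockout effects and are not independent of them. In wild-type aorta 1 of 8 members, C1qa, was higher in the ascending segment, as were 51.7% of all genes, and the median difference was -0.40 against 0.01 over all genes. The macrophage markers had a like median of -0.41, with 1 of 16 above 0, and their part in these differences was not tested. C2 stood at -1.05 (SE 0.30, limma adjusted p = 0.614) and C4b at -0.68 (SE 0.29, limma adjusted p = 0.798), the 2 members with an unadjusted p under 0.05, against 2.98% of all genes lower. Leaving out wild-type ascending replicate 1 brought the C4b difference to -0.41, and leaving out wild-type descending replicate 2 brought it to -0.43. Signs of other members rested on 1 array. C1qb (-0.33) and C1qc (-0.31) turned to 0.12 and 0.062 without wild-type ascending replicate 2, C3ar1 (-0.41) to 0.060 without wild-type descending replicate 1, and C1qa (0.18) to -0.11 without wild-type ascending replicate 1. C2, C4b, Cfb and Serping1 did not overlap between wild-type segments, as 14.1% of all genes did not in that direction. In the knockout C4b, Cfb, Serping1 and C1qc were lower in the ascending aorta without overlap (20.8% of all genes). Cfb had the largest of these differences, at -0.81 (SE 0.30, limma adjusted p = 1.00), and was the 1 member lower at an unadjusted p under 0.05 (2.04% of all genes). C3ar1 was the 1 member higher in the knockout ascending aorta, at 0.57 (SE 0.32), where 48.3% of all genes were higher. No member was called in either genotype, where 0.00902% of all genes were called in the wild-type and 0% in the knockout.

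Other cells that make complement were followed by their markers. Liver markers, 9 of 10 measured, had a median averaged change of 0.52, with 8 above 0 and 0 with an adjusted p under 0.05. Their summed log2 level was 9.20 to 10.1 in wild-type ascending, 9.27 to 9.36 in wild-type descending, 9.56 to 10.6 in the knockout ascending and 8.86 to 11.0 in the knockout descending aorta. The defining markers Alb, Afp and Ahsg lay above the array median on every array. Alb, the albumin gene, was 7.70 and 6.69 in wild-type ascending, 6.97 and 7.53 in wild-type descending, 8.75 and 7.55 in the knockout ascending and 6.86 and 9.01 in the knockout descending aorta. The genotypes overlapped, and the part of liver RNA in the complement values was not tested.

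Fibroblast markers had a median averaged change of 0.15 (8 of 10 above 0) and a summed log2 level of 12.8 to 13.1 across the 4 groups. Smooth muscle markers had a median of 0.31 (9 of 10 above 0) and a summed log2 level of 13.3 to 13.4 in both wild-type segments, 13.6 to 13.7 in the knockout ascending and 13.5 in the knockout descending aorta. Adipocyte markers stood at -0.62 with 0 of 10 above 0 and mesothelial markers at -0.21 with 4 of 8. Endothelial markers stood at -0.36 with 1 of 10 above 0, with a median of -0.71 in the ascending and -0.11 in the descending aorta. Skeletal muscle markers stood at -0.58 with 1 of 10 above 0. Their median was -1.61 in the ascending aorta, with 0 of 10 above 0, and 0.60 in the descending aorta, with 7 of 10.

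Neutrophil markers had a median averaged change of 0.49 (5 of 8 above 0). Their summed log2 level was 9.03 to 10.6 in wild-type ascending, 9.71 to 9.86 in wild-type descending, 11.6 to 11.8 in the knockout ascending and 10.3 to 11.2 in the knockout descending aorta. The defining markers S100a8 and S100a9, which encode the subunits of calprotectin, lay above the array median on every array, with averaged changes of 1.96 (SE 0.43, limma adjusted p = 0.170) and 1.399 (SE 0.37, limma adjusted p = 0.268). Ly6g, below the array median on 7 arrays, stood at -1.399 (SE 0.26, limma adjusted p = 0.120). The 1 blood marker measured, Slc4a1, was 6.14 to 6.75. No marker in these lists, the neutrophil list included, had an adjusted p under 0.05 in the averaged effect, and their part in the complement values was not tested.

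Beyond the members, 42 of 45 further complement genes were measured, and 0 passed the limma test in any comparison. In the averaged knockout effect 17 lay above and 25 below 0, with a median of -0.10 against 0.00 over all genes. At an unadjusted p under 0.05, 4 of 42 were higher and 0 lower, against 7.57% and 3.83% of all genes, so the share that was higher is near that of all genes. The 4 were the receptor subunits Itgam and Itgb2, which together form complement receptor 3 of myeloid cells, the C5a receptor gene C5ar1, and C4a. Itgam was 5.09 and 5.72 in wild-type ascending, 5.45 and 5.44 in wild-type descending, 6.69 and 6.59 in the knockout ascending and 6.13 and 5.91 in the knockout descending aorta. All knockout arrays of Itgam lay above all wild-type arrays, and its averaged change was 0.90 (SE 0.20, limma adjusted p = 0.170). Itgb2 stood at 0.61 (SE 0.19) and C5ar1 at 0.57 (SE 0.19).

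C5ar1 had a profile like that of C2, with wild-type ascending aorta low (4.55 and 4.79) and the other groups at 5.50 to 6.00. Its ascending knockout effect was 1.05 (SE 0.27, limma adjusted p = 0.351), its descending effect 0.09 (SE 0.27), and its wild-type segment difference -1.08 (SE 0.27, limma adjusted p = 0.496). The proteases of the first component are encoded by C1r and C1s genes. C1s1 stood at 0.45 (SE 0.32), C1ra at -0.03 (SE 0.27), C1s2 at -0.01 (SE 0.20) and C1rb at 0.07 (SE 0.20) in the averaged effect. C1rb was among the 3 genes of the list with the smallest p between wild-type segments, at -0.81 (SE 0.28, limma adjusted p = 0.723). C1s2, which was dim at 2.21 to 3.19, had the smallest p of the segment difference in the knockout (0.65, SE 0.28, limma adjusted p = 1.00).

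Genes of the terminal, membrane-attacking complex had averaged changes from -0.30 for C6 and C8a to 0.42 (SE 0.22) for C7, with Hc, the mouse gene of C5, at -0.10, C8b at -0.19, C8g at -0.12 and C9 at -0.24. The lectin pathway genes ran from -0.35 for Fcna to 0.17 for Colec11. Of the genes of membrane regulators, Cr1l (Crry) stood at 0.31 (SE 0.18), Cd55 at 0.01, Cd46 at -0.08 and Cd59a at -0.13. The receptor genes Cr2 (-0.52, SE 0.25) and Vsig4 (-0.48, SE 0.27), the latter a receptor of tissue macrophages, were the lowest. Both were dim, at 2.58 to 4.14 and 2.63 to 4.39. Of the list, the smallest p in the descending effect belonged to Itgam (0.57, SE 0.28), Csmd1 (-0.37, SE 0.25) and C8a (-0.42, SE 0.29).

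**Figure D4:**
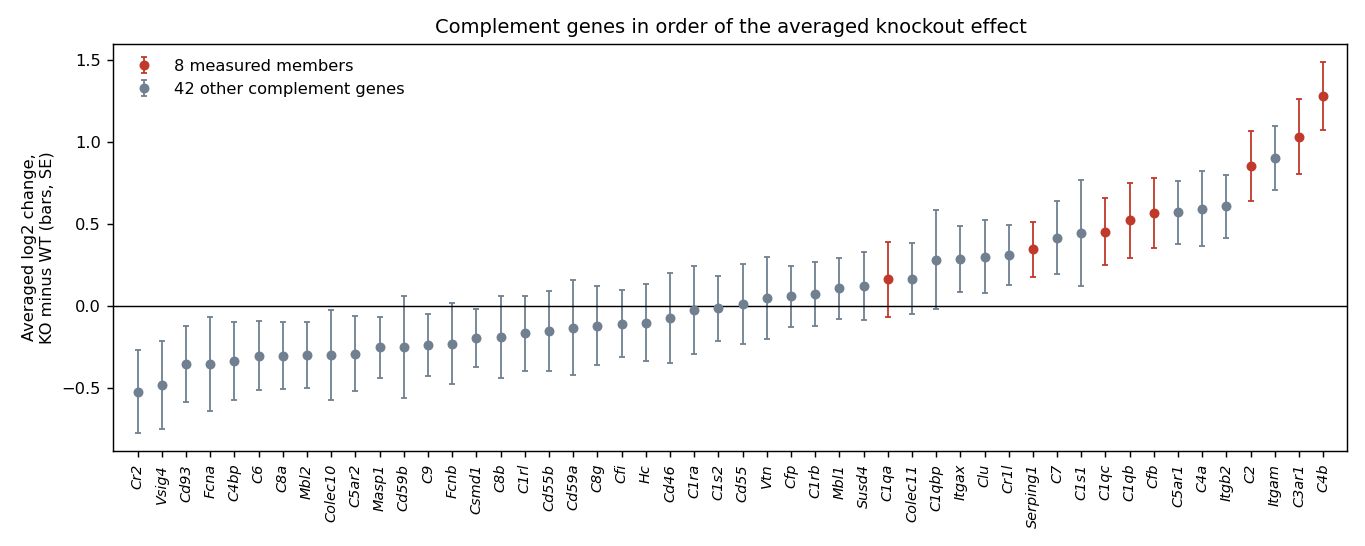
Averaged log2 change, knockout minus wild-type, with its standard error, for the 8 measured members (red) and 42 other complement genes (grey), in order of the change. The members lie between 0.16 and 1.28, and the other genes between -0.52 (Cr2) and 0.90 (Itgam).

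C4b, Cfb and C2 lie close together on chromosome 17 and the C1q genes next to each other on chromosome 4, so their neighbours on the RefSeq assembly GRCm38.p6 were examined, a choice made after the values of the members were seen. On chromosome 17, between C4b and C2, the averaged log2 change was 0.03 (SE 0.18) for Cyp21a1, 0.03 for Stk19, 0.00 for Dxo, 0.34 for Skiv2l and 0.25 for Nelfe, against 0.56 for Cfb and 0.85 for C2 (SE 0.21 each). Over 15 measured neighbours, which include 5 on either side, the changes ran from -0.20 to 0.56, the highest being the heat shock gene Hspa1b, with a median of 0.12. Of these neighbours 13 lay above 0, as did 49.8% of all genes. None of the 15 had an unadjusted p under 0.05, where 7.57% of all genes were higher and 3.83% lower at that level. On chromosome 4, 10 neighbours of C1qb, C1qc and C1qa ran from -0.27 to 0.42 with a median of -0.01. There 5 lay above 0, and none had an unadjusted p under 0.05. Counts over so few genes cannot show that the neighbours were unchanged.

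**Figure D5:**
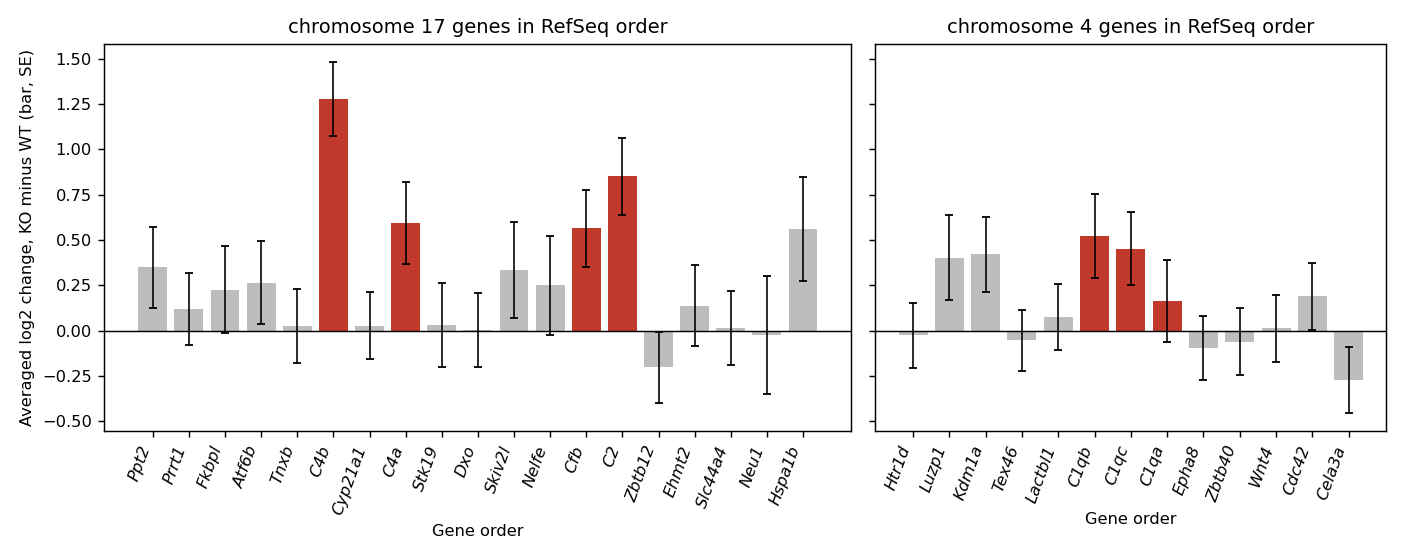
Averaged log2 change, knockout minus wild-type, with its standard error, of measured genes in their order along chromosome 17 (left) and chromosome 4 (right); red bars are complement genes and grey bars their neighbours. C4b (1.28), C4a (0.59), Cfb (0.56) and C2 (0.85) are interspersed with or flanked by neighbours such as Dxo (0.00), Zbtb12 (-0.20) and Hspa1b (0.56).

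Genes of the cytokine signals known to raise complement transcription, and of their other targets, were also examined. Of 25 measured, 24 lay above 0 in the averaged effect (49.8% of all genes), with a median of 0.35 against 0.00. Changes followed the level of a gene, as given above, and these 25 were not set against genes of like brightness. At an unadjusted p under 0.05, 10 were higher (7.57% of all genes) and 0 lower (3.83%), and 1 had an adjusted p under 0.05. That gene was Serpina3n, a secreted protease inhibitor of the acute-phase response, which rose by 2.26 on the log2 scale (SE 0.21, limma adjusted p = 0.0144). Saa3, an acute-phase apolipoprotein, stood at 2.17 (SE 0.39), Osmr, the oncostatin M receptor subunit, at 1.44 (SE 0.27) and Irf7, an interferon regulatory factor, at 0.83 (SE 0.19). Their limma adjusted p was 0.111, 0.132 and 0.195. Saa3 was lower in the ascending than the descending aorta of both genotypes, at 5.22 and 3.87 against 6.50 and 6.57 in the wild-type, and 7.13 and 5.89 against 8.33 and 9.50 in the knockout.

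By likeness over the 8 arrays, among 10516 brighter genes outside the complement lists, the mean of the standardised C1q values was matched best by Dhrsx (Pearson's r 0.984), Kif26b (0.976), Tex261 (0.968), Sipa1l3 (0.963) and Ccdc134 (0.959). C4b was matched best by Mif (0.979), Syvn1 (0.977), the integrin subunit gene Itga11 (0.972), Pip4p2 (0.968) and Klf11 (0.965). These values are the highest of many and describe the ranking alone.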

How the data were processed

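Each array was hybridised with amplified, biotin-labelled RNA from a pool of 8 aortic segments, per the labels' protocols. The authors deposited log2 values, and the submitters' processing notes name Affymetrix Expression Console and RMA. Versions, genome build and probe grouping: not given in the sources used here. Of 41345 rows, 23521 had 1 gene symbol in the platform annotation, 1814 had several, and the other 16010 carried no name there. The highest-mean row per gene left 22180 genes.

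Group means of all 8 arrays were fitted by limma 3.58.1 (R 4.3.3; 4 residual and 5.52 prior degrees of freedom), with 6 contrasts and Benjamini-Hochberg adjustment over all genes. A gene was called at an adjusted p under 0.05. Precision is limited by the number of arrays, with a median standard error of 0.30 within a segment and 0.21 averaged. Intervals are 95% from the fit. The procedure was tested on simulated data.

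The members and lists were chosen with earlier results of these data known. All members were named, with up to 8 further complement genes by smallest p in the averaged effect and up to 3 in each segment comparison. Other complement genes are given by role, a choice made after seeing their values. Also named are the 5 most alike genes, the defining markers and 4 signalling genes. C3 had no row with 1 symbol, so its likeness ranking was not made. Alternatives were 2 scalings, a filter on dim genes, other row choices, a block for the replicate number, a fit on only the groups compared, trend and robust options, array weights, a threshold of 0.1 and leaving out arrays. Deviations of same-numbered arrays from their group means had correlations from -0.08 to 0.29, not all above 0.1, so numbers were not taken to pair pools. Between segments the correlation was 0.29 in the wild-type and -0.02 in the knockout. These values cannot decide whether same-numbered segments shared pups, because replicate 2 of both wild-type groups also had narrower values. Figures used matplotlib 3.10.9 in Python 3.11.15.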

Additional observations from a re-analysis of the deposited data

Results flagged for a closer look

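Among 82 complement, marker and signalling genes looked at, none of the complement genes had knockout effects that differed between segments by limma's test, and 2 skeletal muscle markers had arrays that moved in opposite directions in the segments. Such opposite moves without overlap held for 2.27% of all genes in the direction of these 2, and for 1.38% in the reverse direction. The 2 of 82 are thus near the share of all genes. Ckm was 8.09 and 8.78 in wild-type against 6.47 and 6.15 in knockout ascending aorta, and 6.97 and 5.67 against 7.32 and 7.58 in the descending aorta, a difference of effects of -3.25 (SE 0.59, limma adjusted p = 1.00). Acta1 had ascending values of 9.48 and 11.1 in wild-type against 8.88 and 7.07 in the knockout and descending values of 7.40 and 6.75 against 7.65 and 7.83, a difference of -2.99 (SE 0.88, limma adjusted p = 1.00).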

How the results depend on the processing

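No complement member was called in the 6 comparisons. With the dimmest 25% of genes left out, and at an adjusted p under 0.1, 1 was called in the averaged effect, C4b. Its averaged change stayed between 1.10 and 1.54 in all alternatives. In the fits that kept 2 arrays per group its adjusted p lay between 0.0492 and 0.396. C2, C4b, C3ar1, C1qb, C1qc, Cfb and Serping1 kept a positive knockout effect, averaged and in each segment, in all alternatives run.

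Genes called over all genes numbered 16 in the averaged effect. They numbered 2 after quantile normalization, 35 without dim genes, 1 with every row and 50 at the threshold of 0.1. Counts also moved in fits without the narrow arrays or without 1 array. Those fits leave 1 array in a group, so their counts are not given. In the ascending effect 0 became 1 without dim genes, 4 with trend and robust options, 1 at 0.1, 11 without the narrow arrays and 0 to 14 without 1 array; by unadjusted p under 0.05 there were 1177 higher and 798 lower. In the descending effect 1 became 0 with centring, quantile normalization, every row, the replicate block or only the groups compared, 2 without dim genes, with array weights or at 0.1, 4 with trend and robust options, 7 without the narrow arrays and 0 to 2 without 1 array. For the wild-type segments 2 became 1 with quantile normalization or the replicate block, 0 with every row, only the groups compared or array weights, 9 without the narrow arrays and 0 to 23 without 1 array. For the knockout segments 0 became 2 without dim genes, with trend and robust options or at 0.1, and 18 with array weights. For the difference of effects the count stayed at 0 in the fits that kept 2 arrays per group. The cause of the changes in count was not tested. The replicate block gave 19 genes in the averaged effect and C4b an adjusted p of 0.0925 there; it changed the call of no member.

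Signs turned for the values that follow, the farthest from 0 as reported being -0.41 for C3ar1 between wild-type segments. After quantile normalization C1qa was -0.055 averaged and -0.19 ascending, and the Serping1 difference of effects -0.039. Without the narrow arrays C1qa was -0.050 averaged and -0.28 ascending, the wild-type segment difference 0.018 for C1qb and 0.076 for C1qc, and the difference of effects -0.11 for C1qb, -0.23 for C1qc and 0.22 for Cfb. Leaving out 1 array at a time, C1qa ran from -0.023 to 0.35 averaged, -0.28 to 0.30 ascending, -0.054 to 0.68 descending, -0.11 to 0.47 between wild-type segments, -0.49 to 0.24 between knockout segments and -0.68 to 0.062 in the difference of effects. Between wild-type segments C1qb ran from -0.77 to 0.12, C1qc from -0.68 to 0.062 and C3ar1 from -0.89 to 0.060. Between knockout segments C1qb ran from -0.30 to 0.12 and C2 from -0.51 to 0.015. The difference of effects ran from -0.21 to 0.68 for C1qb, -0.21 to 0.53 for C1qc, -0.61 to 0.13 for Cfb and -0.084 to 0.13 for Serping1.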
